A study of Caenorhabditis elegans with 6 samples.

Results

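The early zygotic genes of Caenorhabditis elegans are the first genes that the embryo transcribes from its own genome, and their transcripts were followed here in young adults of N2 and of the mir-243 mutant. The set was chosen by gene name. It held every gene named sdz (SKN-1-dependent zygotic transcript) or vet (very early transcript), and end-1, end-3, tbx-35, tbx-37, tbx-38, pes-1, pes-10, hlh-25, hlh-26, hlh-27, ceh-51, fkh-3, fkh-4, fkh-5, nob-1 and cnd-1. The reference annotation lists 54 such genes, 3 of them as pseudogenes (sdz-3, sdz-29 and sdz-34). The array carried a matched probe for 51 of them, of 18124 genes matched in all, and sdz-29 and nob-1 each had 2 probes, so that 53 of 20401 gene probes belonged to the set. No probe was matched to hlh-25, sdz-6 or sdz-25. No measured value was used in this choice.

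The worms were wild-type strain N2 (Bristol) and worms carrying the mir-243 allele n4759, both collected as young adults. The microRNA miR-243 associates with the Argonaute protein RDE-1, and the arrays were made to find transcripts that change in its absence. RNA of whole worms was copied into cDNA, and the mutant and N2 cDNA of each of 3 biological replicates were hybridised together on 2 arrays with the Cy3 and Cy5 dyes exchanged, which gave 6 arrays. The mutant was represented by 1 allele, the sources used here do not give the number of worms in a sample or their age in hours, and no probe was matched to mir-243 itself, so the deletion could not be checked on the arrays.

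In the worm embryo, transcription from the zygotic genome starts after a few cleavages under the control of proteins and RNAs that the mother placed in the oocyte. The maternal bZIP factor SKN-1 switches on the mesendoderm genes, among them end-1 and end-3, while other early genes respond to Notch or Wnt signals between the first cells. Many of these transcripts are present only for a few cell cycles. The adult hermaphrodite keeps its first embryos in the uterus, so RNA from whole adults can include embryonic RNA. In whole-worm RNA, fewer embryonic cells and less RNA per cell cannot be told apart.

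The whole array set the background for every count. Between 77.0% and 82.9% of gene probes were well above background in the channel of N2, and between 77.5% and 84.4% in that of the mutant. A probe was tested when the scanner software marked it as well above background on at least 4 of the 6 arrays in at least 1 genotype. Of 16272 tested probes, 1480 were higher and 1167 lower in the mutant at a fold of at least 2 and an adjusted p under 0.05, which was the rule for a call. That was 9.10% called higher and 7.17% called lower, while 42.2% and 41.3% passed the adjusted p alone in each direction. Markers of adult oocytes and eggshell were called lower in the mutant for 13 of 13 tested probes (median log2 ratio −1.80), and vitellogenin probes for 5 of 5 (−3.17). Markers of molting larvae were called higher for 10 of 10 (median log2 ratio 3.8). The stage marker lists are described with the maternal genes, and their part in the values of the early zygotic genes was not tested.

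Detection itself differed between the genotypes. Of the 53 early zygotic probes, 36 were well above background on all 6 arrays in N2 and 26 in the mutant, and 12 were at 0 arrays in N2 against 20 in the mutant. The 12 probes at 0 arrays in both genotypes were 22.6% of the set, and 12.5% of all gene probes were. A total of 14 probes (26.4%) were marked on more arrays in N2 than in the mutant, where 3.74% of all gene probes were. Only 1 probe, sdz-35 (1.89%), was marked on more arrays in the mutant, where 9.46% of all gene probes were. The remaining 38 were marked on equal numbers. At the extreme, 7 probes were well above background on at least 4 arrays in N2 and on 0 arrays in the mutant. These were fkh-4, vet-1, vet-6, sdz-7, sdz-26, sdz-30 and sdz-33. They made up 13.2% of the set, against 0.431% of all gene probes. The opposite pattern, the mutant on at least 4 arrays and N2 on 0, was seen for 1.27% of all gene probes and for no early zygotic probe. These shares are counts of the scanner's marks and were not tested. The plot of detection by genotype shows each probe.

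**Figure D1:**
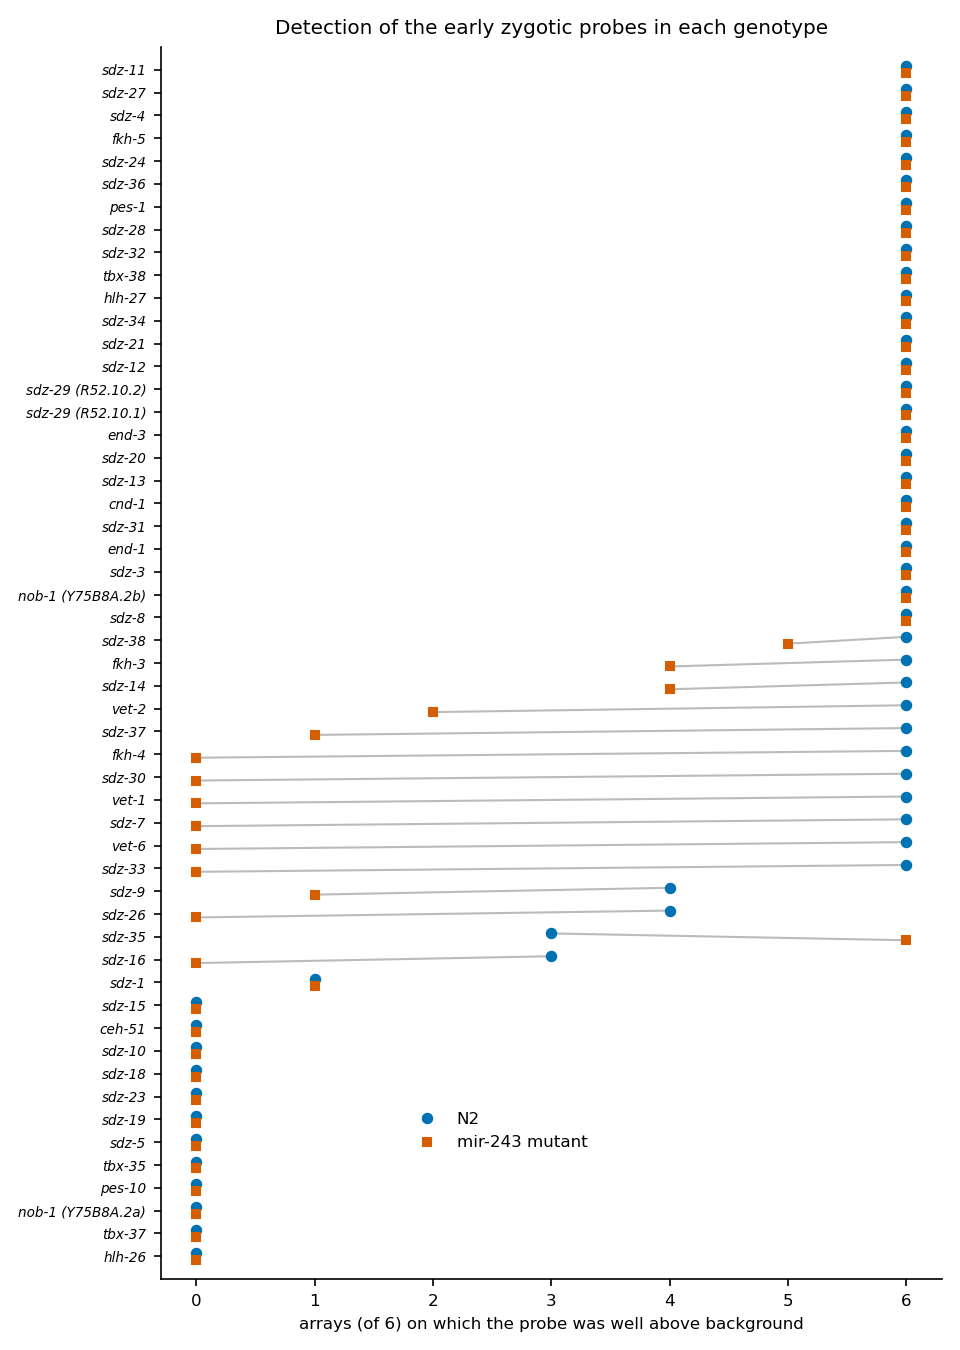
Number of the 6 arrays (x axis) on which each of the 53 early zygotic probes (y axis, one line per probe) was well above background in the channel of N2 (circles) and of the mir-243 mutant (squares); grey lines join unequal pairs, and equal pairs are set slightly apart vertically. At the top 25 probes are at 6 arrays in both genotypes, at the bottom 12 are at 0 in both, and 14 of the 15 joined pairs have N2 to the right.

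Detection separated the set into parts with different measurability. There were 28 probes that reached 4 arrays in both genotypes, 10 that reached it in N2 alone and 1 in the mutant alone, which gave 39 tested probes. A probe that passed through N2 alone had to differ, so counts over the 39 tested probes are given as a description. Of these 39, 32 (82.1%) were lower in the mutant at an adjusted p under 0.05 in limma's moderated test and 5 (12.8%) were higher, beside 41.3% and 42.2% of all tested probes. Calls, which also need a fold of at least 2, were 5 lower (12.8%) and 1 higher (2.56%), beside 7.17% and 9.10%. The median log2 ratio of mutant over N2 was −0.29 (SD of the 3 replicate medians 0.044), against −0.01 over all tested probes. Without the 7 probes that had only a bound in the mutant, the median over the remaining 32 was −0.22.

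Probes detected throughout were not chosen through 1 genotype alone, but weak probes near the background in the mutant were left out. The 25 probes that were well above background on all 6 arrays in both genotypes (47.2% of the set, against 72.6% of all gene probes) had a median log2 ratio of −0.18, against −0.02 for all 14268 tested probes of that class. In this class 19 of 25 early zygotic probes (76.0%) were lower at an adjusted p under 0.05 and 4 (16%) were higher, and over all probes of the class the shares were 43.6% and 42.6%. The count of 19 depended on loess. With median centring the adjusted p of the moderated test was above 0.05 for tbx-38 (0.105), hlh-27 (0.252), sdz-21 (0.0899) and sdz-12 (0.105). It was also above 0.05 for sdz-20 (0.0864), sdz-13 (0.059), end-3 (0.915) and both sdz-29 probes (0.885 and 0.719). The other probes of the 19 stayed lower and under 0.05. All of the 19 were also among the 32 lower probes of the 39 tested. None of the 25 was called lower, where 7.87% of the class was, and 1 was called higher, where 9.86% was. When every probe with 3 replicate values was tested with no regard to detection, 36 of 53 early zygotic probes were lower and 4 higher at an adjusted p under 0.05, and 6947 of 19837 probes were lower and 7057 higher. Passing in either direction, that was 75.5% of the set and 70.6% of all probes. With the offset of 50, the 5 called decreases thus lay among probes that missed the mark of detection on at least 2 arrays in the mutant. On the signals processed by the scanner software, which carry no offset, 4 of the 25 were called lower, beside 13.6% of all 16272 tested probes. The share over all probes of the class was not counted there. The 4 were sdz-4 (log2 ratio −1.73), sdz-36 (−1.37), sdz-27 (−1.0) and sdz-11 (−1.0), and sdz-11 was also called with median centring (−1.20).

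**Figure D2:**
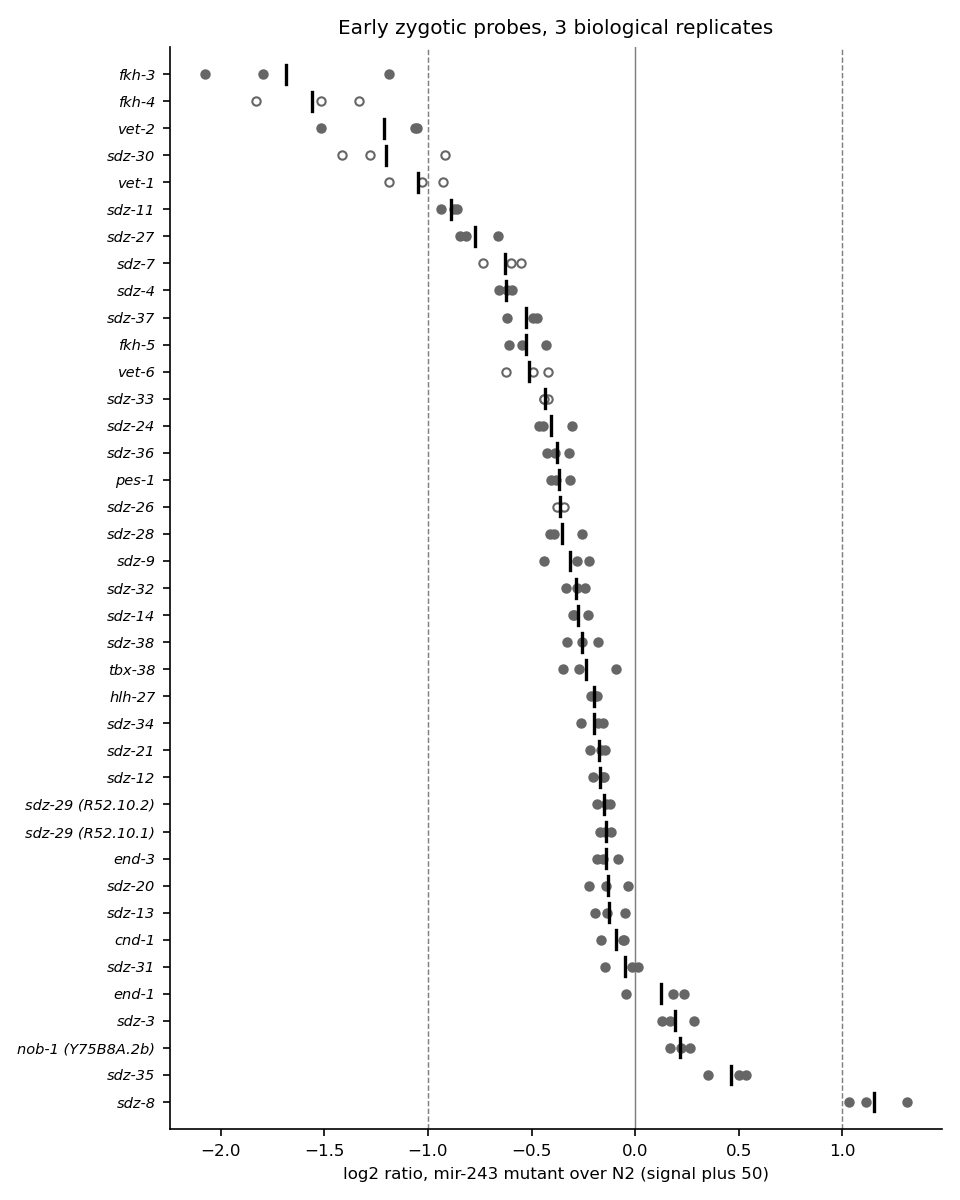
Log2 ratio of mir-243 mutant over N2 (x axis, on signal plus 50) for the 39 tested early zygotic probes (y axis); each circle is 1 of 3 biological replicates averaged over both dye orientations, the black bar is their mean, and dashed lines mark a 2-fold change. Open circles mark probes that were on 0 arrays well above background in the mutant. Of the 39 means 34 lie left of 0, and the only mean beyond the right dashed line is that of sdz-8.

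The forkhead genes fkh-3 and fkh-4, which encode members of a transcription factor family that also includes the pharynx regulator PHA-4, had the lowest ratios at the offset of 50. On the scanner's processed signals, sdz-30, vet-1 and vet-2 lay below fkh-3 as well. The forkhead pair are neighbours on chromosome X. Signals are given per replicate, in the order 1 to 3, as background-corrected and normalised intensity plus the offset of 50, averaged over both dye orientations. For fkh-3 they were 401, 209.6 and 279 in N2 and 95.1, 92.0 and 80.2 in the mutant. All N2 values lay above all mutant values, and the spread was wider in N2. The mean log2 ratio was −1.69 ± 0.454 (SD, n = 3), with array values from −2.30 to −0.91, an adjusted p of 6.71e-09 and lower values on 6 of 6 arrays. The probe was well above background on 6 arrays in N2 and on 4 in the mutant. For fkh-4 the signals were 280.3, 189 and 201 in N2 and 78.8, 74.9 and 70.3 in the mutant, again without overlap. The mean log2 ratio was −1.56 ± 0.251 (−2.16 to −1.09 over the arrays, adjusted p = 1.29e-10). As the mutant was on 0 arrays well above background, the change is a bound, and fkh-4 was at least 2.88-fold lower. Replicate 1 had the largest decrease and replicate 2 the smallest in both genes.

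The third gene of that series, fkh-5, lies on chromosome III and was measured on all arrays in both genotypes. Its signals were 239, 224 and 222 in N2 and 157, 167 and 152 in the mutant. The groups did not overlap, and the mean log2 ratio of −0.53 ± 0.0922 (adjusted p = 1.52e-07) was below the 2-fold limit. A further forkhead gene, pes-1, had signals of 175, 209 and 192 in N2 and 132, 168 and 148 in the mutant, which gave a log2 ratio of −0.37 ± 0.0473 (adjusted p = 3.02e-06). Each replicate was thus lower for all 4 forkhead members, with means ordered fkh-3, fkh-4, fkh-5 and pes-1. The replicate ratios of fkh-3 and fkh-4 overlapped, so these genes could not be put in order, whereas those of fkh-4, fkh-5 and pes-1 lay apart.

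All 3 vet genes, named for their appearance among the earliest transcripts of the embryo, lie on chromosome I and were lower. The vet-1 probe had signals of 175, 154 and 149 in N2 and 76.5, 81.0 and 73.2 in the mutant. It was on 6 arrays in N2 and on 0 in the mutant. The log2 ratio was −1.05 ± 0.133 (−1.21 to −0.86 over the arrays, adjusted p = 2.97e-10), and vet-1 was at least 2.06-fold lower. For vet-2, the signals were 159.6, 175 and 215 in N2 and 76.8, 83.6 and 75.0 in the mutant. The highest N2 value was that of replicate 3, and all mutant values lay below those of N2. Its log2 ratio was −1.21 ± 0.264 (−1.81 to −0.45 over the arrays, adjusted p = 2.53e-09). The mutant was detected on 2 arrays, both with the mutant in Cy5. The remaining gene, vet-6, had signals of 103, 101 and 107 in N2 and 73.3, 75.1 and 69.3 in the mutant. Its log2 ratio was −0.51 ± 0.102 (adjusted p = 2.57e-07), its bound was at least 1.41-fold lower, and it was not called. The calls for vet-1, vet-2 and sdz-30 ended when the background was left uncorrected (log2 ratios −0.72, −0.86 and −0.82) and when normexp was fitted on all spots (−0.86, −0.95 and −0.97), whereas fkh-3 and fkh-4 remained called under both. The call of vet-1 also ended without replicate 1 (−0.98), and that of vet-2 on the arrays with the mutant in Cy3 (−0.85).

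**Figure D3:**
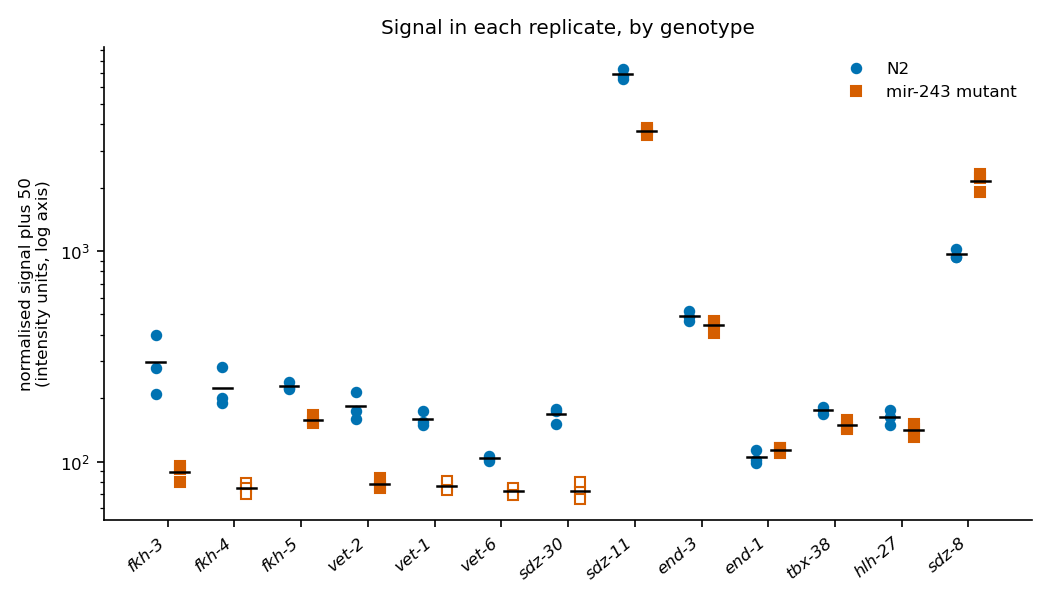
Normalised signal plus 50 (y axis, intensity units, log axis) of selected early zygotic probes (x axis) in N2 (circles) and the mir-243 mutant (squares); points are the 3 biological replicates, bars their means, and open squares mark probes on 0 arrays well above background in the mutant. The 3 points of each genotype lie apart for fkh-3, fkh-4, vet-1, vet-2, vet-6, sdz-30, sdz-11 and sdz-8, while those of end-3, end-1 and hlh-27 overlap. Levels of different probes are not comparable.

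The sdz genes, found as transcripts that need SKN-1 in the embryo, formed the largest group. They had 34 probes for 33 genes. Of 26 tested probes, 22 were lower and 3 higher at an adjusted p under 0.05, beside 41.3% and 42.2% of all tested probes. In each direction 1 was called, beside 7.17% lower and 9.10% higher over all tested probes. Several of the 26 passed the detection filter through N2 alone, sdz-30 among them. The median log2 ratio was −0.28. The called decrease was sdz-30 on chromosome I. Its signals were 174, 151 and 177 in N2 and 71.6, 79.9 and 66.6 in the mutant, with every N2 value above every mutant value. The log2 ratio was −1.20 ± 0.256 (−1.47 to −0.78 over the arrays, adjusted p = 2.16e-09), the mutant was on 0 arrays well above background, and the bound was at least 2.27-fold lower. Among sdz probes detected on all arrays in both genotypes, sdz-11 had the lowest ratio at the offset of 50, while sdz-4 and sdz-36 lay below it on the scanner's processed signals. Its signals were 6545, 6796 and 7362 in N2 and 3569, 3745 and 3845 in the mutant, and the log2 ratio was −0.89 ± 0.0409 (adjusted p = 2.29e-10), a 1.85-fold decrease with a small spread. The next was sdz-27, with 1016, 788 and 700.2 in N2 and 566, 499 and 397 in the mutant, and its log2 ratio was −0.77 ± 0.0996 (adjusted p = 2.95e-09). Both lay under the 2-fold limit here and were called on the scanner's processed signals and the deposited ratios.

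Several sdz probes were detected in N2 alone or on few arrays in the mutant. The sdz-7 probe had signals of 119, 109 and 105 in N2 and 71.9, 74.4 and 69.2 in the mutant and was at least 1.53-fold lower. Its log2 ratio was −0.63 ± 0.0938 (adjusted p = 2.43e-08). The bounds were at least 1.35-fold for sdz-33 and at least 1.28-fold for sdz-26, with log2 ratios of −0.43 ± 0.0129 and −0.36 ± 0.0163. The size for sdz-33 depended on the dye, with −0.60 to −0.57 with the mutant in Cy5 and −0.31 to −0.25 in Cy3. The sdz-37 probe was on 6 arrays in N2 and on 1 in the mutant (log2 ratio −0.53 ± 0.0801), and sdz-9 was on 4 and 1 (−0.31 ± 0.114). The sdz-16 probe was on 3 arrays in N2 and 0 in the mutant and was not tested. Mutant signals of these probes lay between 69.2 and 88.0, of which 50 is the offset. The sdz-24 probe, detected throughout, had signals of 7987, 7443 and 7817 in N2 and 5782, 6033 and 5746 in the mutant, a log2 ratio of −0.40 ± 0.0886 (adjusted p = 2.29e-06). The log2 ratio of sdz-4 was −0.62 ± 0.0316 (adjusted p = 8.91e-09).

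The other 13 sdz probes with a lower mean had log2 ratios from −0.38 ± 0.0556 for sdz-36 to −0.05 ± 0.084 for sdz-31. Of all tested sdz probes, sdz-31 alone did not pass (adjusted p = 0.341). Both probes of the pseudogene sdz-29 had small decreases (−0.15 ± 0.0323 and −0.14 ± 0.026), which turned to 0.010 and 0.024 with median centring. Of the 8 untested sdz probes, 6 were on 0 arrays in either genotype. One of these, sdz-15, had a lower mutant signal on 6 of 6 arrays nonetheless, with 77.4, 82.0 and 84.4 in N2 and 64.2, 70.3 and 64.4 in the mutant. Both groups were so close to the offset that no fold is given.

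Exceptions in the other direction were sdz-8, sdz-35 and sdz-3. For sdz-8 on chromosome V the signals were 933, 1028 and 935 in N2 and 1910.4, 2226 and 2323 in the mutant. The mutant was higher in every replicate and the groups did not overlap. The log2 ratio was 1.15 ± 0.143 (0.94 to 1.34 over the arrays, adjusted p = 1.46e-10), a 2.23-fold increase measured on all 6 arrays in both genotypes, and it fell to 0.97 when arrays were only centred on their median, below the 2-fold limit. The sdz-35 probe was well above background on 3 arrays in N2 and on 6 in the mutant. Its signals were 93.2, 86.2 and 99.3 in N2 and 135, 110.0 and 141 in the mutant. Its log2 ratio was 0.46 ± 0.0977 (adjusted p = 6.96e-07), not called. For sdz-3, annotated as a pseudogene, the log2 ratio was 0.19 ± 0.0819 (adjusted p = 0.00151). In the main setting no other probe of the set reached a 2-fold increase. On the signals processed by the scanner software, which carry no offset, sdz-35 was also called higher. Its log2 ratio there was 1.41, above that of sdz-8 (1.12), and the deposited ratios gave the same values for both probes.

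The endoderm was represented by end-1 and end-3, GATA factors that start gut development in the E lineage. Both were detected on all 6 arrays in both genotypes. The end-3 signals were 464, 485 and 521 in N2 and 408, 458 and 468 in the mutant. Its replicate signals overlapped between genotypes, although the mutant was lower within each replicate. The log2 ratio was −0.14 ± 0.0527 (−0.28 to −0.03 over the arrays, adjusted p = 0.00909), and with median centring it turned to 0.0073. For end-1 the signals were 98.7, 102 and 114 in N2 and 116, 116 and 110.3 in the mutant, and the ratio was 0.13 ± 0.147 (−0.07 to 0.32 over the arrays, adjusted p = 0.045). Replicates 1 and 2 were higher in the mutant and replicate 3 was not, so the groups overlapped. The folds were 1.1 and 1.09.

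Of the mesoderm and pharynx factors, only tbx-38 was detected. TBX-37 and TBX-38 are closely related T-box proteins that act redundantly in the anterior AB lineage. The tbx-38 signals were 176, 168 and 182 in N2 and 146, 158 and 143 in the mutant, without overlap. The log2 ratio was −0.24 ± 0.133 (−0.49 to −0.07 over the arrays, adjusted p = 8.29e-04). The tbx-37 probe was on 0 arrays well above background in either genotype, with signals of 81.3, 88.8 and 79.2 in N2 and 85.5, 89.8 and 78.7 in the mutant that overlapped, and array ratios from −0.07 to 0.09. For tbx-35 and ceh-51, which encode a T-box and a homeobox factor of the MS lineage, no array showed a signal well above background in either genotype. The ceh-51 signals were nonetheless lower in the mutant on 6 of 6 arrays and did not overlap, with 88.9, 85.4 and 85.7 in N2 and 77.7, 74.1 and 73.8 in the mutant. Those of tbx-35 overlapped, with 67.5, 65.5 and 61.5 and 63.2, 65.2 and 64.4.

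The bHLH genes hlh-25, hlh-26 and hlh-27 belong to the REF-1 family, whose members respond to Notch signals in the early embryo. They lie close together on chromosome II, with 1 gene between hlh-25 and hlh-27. Only hlh-27 was well above background. Its signals were 163, 149 and 176 in N2 and 142, 131 and 151 in the mutant, so that the ranges overlapped, but within each replicate the mutant was lower. The log2 ratio was −0.20 ± 0.0154 (−0.29 to −0.08 over the arrays, adjusted p = 6.71e-04). The hlh-26 probe was on 0 arrays well above background in either genotype, with signals of 57.6, 70.9 and 65.9 in N2 and 63.9, 69.9 and 65.3 in the mutant and array ratios from −0.29 to 0.26. The same was true of pes-10, an early transcript whose promoter is widely used in reporter constructs, with 81.4, 78.1 and 77.1 in N2 and 83.6, 80.1 and 72.8 in the mutant. Among the related members, the probe sequences were not used here, so cross-hybridisation between fkh-3 and fkh-4, tbx-37 and tbx-38, or the hlh genes was not checked.

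Later-acting members changed little. NOB-1, a posterior Hox protein, was represented by probes for 2 transcripts. The probe of Y75B8A.2b had signals of 1036, 1089 and 1046 in N2 and 1165, 1309 and 1218 in the mutant and a log2 ratio of 0.22 ± 0.0483 (adjusted p = 3.85e-04). That value depended on the dye. Arrays with the mutant in Cy5 gave 0.36 to 0.46, and arrays with the mutant in Cy3 gave −0.08 to 0.08. The probe of Y75B8A.2a was on 0 arrays well above background in either genotype. For cnd-1, a NeuroD-related bHLH gene of neuronal precursors, the signals were 117, 116 and 124 in N2 and 113, 111 and 111 in the mutant. Its log2 ratio of −0.09 ± 0.0615 did not pass (adjusted p = 0.0711), although the signals did not overlap. In all, the 10 tested probes of transcription regulators had a median log2 ratio of −0.22, with 7 lower and 2 higher at an adjusted p under 0.05. Of the 16272 probes tested on the whole array, 41.3% were lower and 42.2% higher at that threshold. Among the 7 was fkh-4, which passed the detection filter through N2 alone and had to differ, so the count is a description. Without fkh-4 the median was −0.20.

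Signals that did not overlap between genotypes were found for 28 of the 39 tested probes with the mutant lower and for 4 with the mutant higher. Over all tested probes the shares were 34.0% and 36.9%. Probes that passed the detection filter through N2 alone had to differ, so the count of 28 is a description. Of the 25 probes detected on all arrays in both genotypes, 15 did not overlap with the mutant lower and 3 with the mutant higher. Over all 14268 tested probes of that class, these counts were 5117 and 5325. The exact sign-flip test over 3 replicates cannot go below 0.25 and was therefore of no use for single probes. By replicate, the median log2 ratio of the tested members was −0.26, −0.28 and −0.34. Replicates 1 and 2 were on the first slide and replicate 3 on the second, and each slide held both genotypes. For fkh-3, fkh-4, vet-2 and sdz-30, the decrease was larger with the mutant in Cy5 than in Cy3 in every replicate. For vet-1, the other called decrease, this was not so.

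The size of the decreases differed between settings of background and normalisation. The scanner's processed signals were used without the loess step, so the parts of background and normalisation cannot be told apart for them. On the signals processed by the scanner software, without an offset, 16 of the 39 probes were called lower and 2 higher, against 13.6% and 13.1% of all tested probes, and the median was −0.83. The 6 calls of the main setting were all among these 18. Of the 39 probes, 10 had passed the detection filter through N2 alone and had to differ. The counts and the median are therefore a description. On the scanner's signals, the log2 ratio was −3.44 for fkh-3, −4.41 for fkh-4, −4.38 for sdz-30, −3.96 for vet-1, −3.48 for vet-2, −2.73 for vet-6 and −2.95 for sdz-7. Of these, only fkh-3 and vet-2 were well above background on any array in the mutant. The sdz-11 and sdz-8 probes moved little, with −1.0 for sdz-11 in place of −0.89 and 1.12 for sdz-8 in place of 1.15. With no background correction the median was −0.19 and 2 probes were called lower. The plot of ratios by setting shows that the direction of fkh-3, fkh-4, the vet genes and sdz-30 was the same under all 4 settings while the size was not.

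**Figure D4:**
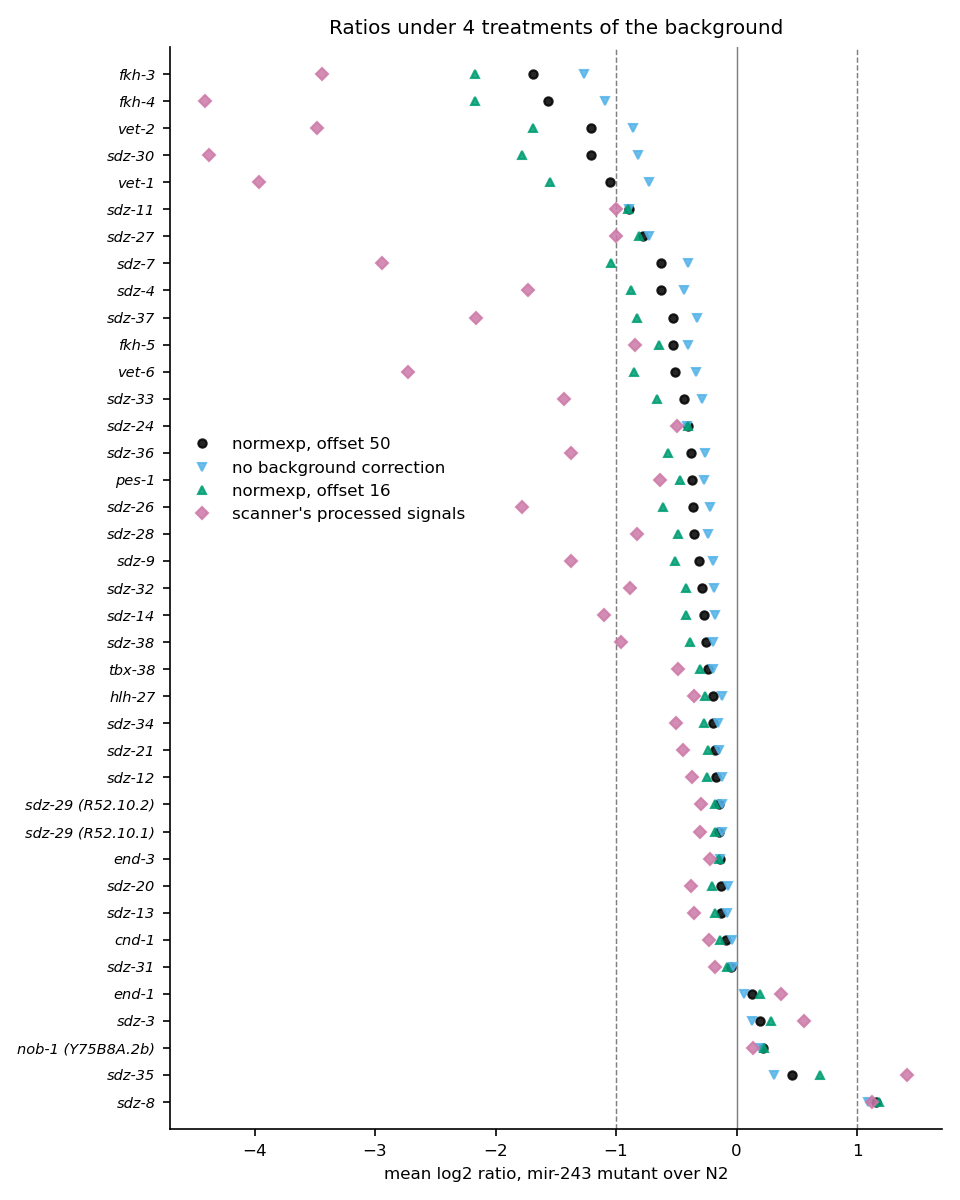
Mean log2 ratio of mir-243 mutant over N2 (x axis) of the 39 tested early zygotic probes (y axis) under 4 settings; dashed lines mark a 2-fold change. Circles are the main setting (normexp, offset 50), upward triangles an offset of 16, and downward triangles no background correction. Diamonds are the scanner's processed signals, used without the loess step, which reach −4.41 for fkh-4.

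The maternal regulators that act before these genes were compared through a separate list of 23 genes, among them skn-1, pie-1, pal-1 and the genes for Wnt and Notch signals. Of its 23 tested probes, 21 were lower and 2 higher at an adjusted p under 0.05, with 15 called lower and 2 called higher and a median log2 ratio of −1.15. Over all tested probes 41.3% were lower and 42.2% higher at that threshold, with 7.17% called lower and 9.10% called higher. The largest decreases were those of pos-1 (−1.99 ± 0.096, SD, n = 3), a zinc-finger RNA-binding protein, spn-4 (−1.90 ± 0.092), oma-2 (−1.83 ± 0.075), mom-2 (−1.82 ± 0.067), which encodes a Wnt ligand, and oma-1 (−1.82 ± 0.015). The 2 called increases were both probes of lit-1, a Nemo-like kinase (1.23 ± 0.034 and 1.52 ± 0.080). For skn-1 itself, both tested probes were lower, with log2 ratios of −0.27 ± 0.019 and −0.23 ± 0.038, and neither was called. All these probes were detected on 6 arrays in both genotypes, and oma-1 and oma-2 also stood in the oocyte list.

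Other lineage regulators of the embryo, from a list of 29 genes, were more often higher. Of 25 tested probes, 7 were lower and 16 higher at an adjusted p under 0.05, and the median log2 ratio was 0.22. Over all tested probes 41.3% were lower and 42.2% higher at that threshold. The called probes were tbx-9 (−2.33 ± 0.091), a T-box gene, hnd-1 (−1.24 ± 0.120), a Hand-type bHLH gene, and the Hox gene ceh-13 (1.14 ± 0.045). The direct SKN-1 target med-1 had a log2 ratio of −0.11 ± 0.075 (adjusted p = 0.0383), and med-2 was on 0 arrays in N2 and 3 in the mutant and was not tested. The difference between the lists was not tested. Many genes on this list, such as the Hox genes, also act in larvae and adults.

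Beside these lists stood the stage and tissue markers. Germ line markers were lower for 6 of 6 tested probes (median −0.92, 2 called). Of the genes listed for the late embryo, the collagen gene sqt-3 and the junction genes ajm-1 and dlg-1 were higher for 6 of 6 tested probes (0.73, 2 called). Whether embryos were the source of the signal of these 3 genes was not tested. The lbp-1 probe, a further late embryo marker detected on 6 arrays in both genotypes, had no value in replicate 2 and was not tested, and its log2 ratios were −0.41 and −0.44 in replicates 1 and 3. The probe of hch-1, which encodes the protease of hatching, was on 0 arrays well above background in either genotype. Its log2 ratios near the background were −0.27, −0.20 and −0.21 in replicates 1 to 3. Sperm markers had a median of 0.03 over 4 probes with none called, muscle markers 0.23 over 3 with none called, and intestine markers 0.42 over 5 with only ges-1 called, lower at −1.01 ± 0.038. Summed over the tested probes of a list, the oocyte and eggshell signal ranged from 347182 to 375786 in N2 and from 80874 to 84761 in the mutant, and the molting signal from 8429.5 to 9331 and 104413 to 114672. For vitellogenin these ranges were 95133 to 111270.0 and 8639 to 9560.4. No defining oocyte, vitellogenin or molting marker was undetected in either genotype. By their medians, the oocyte, vitellogenin, germ line, maternal and early zygotic lists were thus lower in the mutant. The molting, late embryo, intestine, muscle and other zygotic lists were higher. The 25 early zygotic probes detected throughout had a median of −0.18, beside −1.15 for the maternal and −1.80 for the oocyte list. Why the lists differed was not tested. Whether the embryo content of the worms differed between the genotypes was not measured.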

How the data were processed

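RNA of N2 and mir-243 (n4759) young adults was compared on 6 Agilent arrays, 3 biological replicates with the dyes exchanged, as the labels give them. The 2 arrays of each replicate were counted as 1 sample because they share their RNA, so n = 3. The authors scanned the arrays with Agilent Feature Extraction, version 10.5.1.1 per the file headers and 8.5.1.1 per the labels. The deposited spot values used were intensity medians of each spot and its local background, not normalised, and quality marks of 0 or 1. The authors' files also held processed intensity values and, from the scanner software, log10 ratios with Cy5 as the numerator. The authors deposited a log2 ratio per probe as well. On each array 88.0% to 90.8% of gene probes lay within 0.001 of the scanner's ratio on the log2 scale, so its scale was log2 and its direction Cy5 over Cy3. The medians of its columns were −0.112, −0.081 and −0.096 with the mutant in Cy5 and 0.017, 0.050 and 0.066 with the mutant in Cy3. Its centring, and why the remaining probes differ, stay unknown.

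Background was corrected in limma 3.58.1 (R 4.3.3) by normexp with an offset of 50, fitted on spots without outlier marks, a choice made after the intensities had been seen. Outlier and control spots were left out, ratios were normalised by loess within each array, spots of a probe were averaged, ratios were turned to mutant over N2 and both dye orientations were averaged. A probe was tested if at least 50% of its spots were well above background on at least 4 of 6 arrays in 1 genotype and it had 3 replicate values. A two-sided moderated test of the ratio (limma's lmFit and eBayes) was made, and p was adjusted over all tested probes by Benjamini-Hochberg. A call needed an adjusted p under 0.05 and a fold of at least 2, the fold in the study's methods. Where a probe was on 0 arrays well above background in a genotype, the fold is a bound ("at least"), computed per channel after Aquantile normalisation against the higher of the probe's own signal and the lowest signal among probes well above background. A bound holds for the main setting only, and other settings gave smaller folds for some of these probes. The offset draws ratios of weak probes towards 0. The tests were also run on simulated data with few changed probes and a replicate spread below that of probes such as fkh-3. The simulation therefore does not check the adjusted p of such probes. Precision is limited by having 6 arrays.

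Of 20401 gene probes, 19837 carried a gene name and 19057 of these were matched to RefSeq genes on assembly WBcel235, used for names, chromosomes and gene order. Probes of the same gene were kept apart. All genes of the set may be named. Values by replicate or array are given for called members, for members whose bound passes 2-fold and for the end, tbx-37/38, hlh and fkh families, and further members given in full were picked after their values were seen. From the maternal and the other zygotic list, up to 5 called probes in each direction are named, and skn-1, med-1, med-2 and the marker genes were added later. The members and lists were chosen with earlier results of these data known.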

Additional observations from a re-analysis of the deposited data

How the results depend on the processing

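A total of 16 alternatives were run for the fit and 1 for detection. Over the single probes 572 values kept their direction and side of the threshold, 26 became called, 9 lost the call and 3 changed sign, the last with median centring (sdz-29 at 0.010 and 0.024, end-3 at 0.0073). The count of early zygotic probes called lower, 5, became 2 with normexp fitted on all spots, 2 without background correction, 0 when both genotypes had to be well above background on all arrays (fkh-3 and fkh-4 could then not be tested), 16 on the scanner's processed signals and 16 on the deposited log2 ratios. The count called higher, 1, became 0 with median centring, 2 with the scanner's signals and 2 with the deposited ratios. The median of −0.29 became −0.23 with normexp on all spots, −0.19 without correction, −0.42 with an offset of 16, −0.83 with the scanner's signals, −0.85 with the deposited ratios, −0.18 with the filter on both genotypes and −0.20 with no filter. Over all probes, 1167 called lower became 2214 with the scanner's signals and 2321 with the deposited ratios. Of the other zygotic regulators, 1 was called lower without background correction, and 2 were called higher without replicate 3 and on the arrays with the mutant in Cy3. Of the maternal regulators, 1 was called higher with median centring. Why these settings differ was not tested, except that the filter on both genotypes left 25 probes. Leaving out 1 replicate gave 4 to 5 probes called lower, 1 to 1 called higher and a median of −0.31 to −0.26. The call of vet-1 was lost without replicate 1 (−0.98), and that of vet-2 on the arrays with the mutant in Cy3 (−0.85). An offset of 16 gave sdz-7 a call (−1.04) and median centring gave sdz-11 one (−1.20). On the scanner's signals and on the deposited ratios, 12 further probes were called, among them sdz-7 (−2.95 on the scanner's signals) and, of those detected throughout in both genotypes, sdz-4 (−1.73), sdz-36 (−1.37), sdz-27 (−1.0) and sdz-11 (−1.0). With the replicate as a block over 6 arrays (consensus correlation 0.0889), 5 probes were called lower and 1 higher with a median of −0.29, and no call changed in number. With the slide as a block, chosen after seeing the data, the counts were also 5 and 1, and the median was −0.30. When all spots of a probe had to be well above background, 25 early zygotic probes were on all 6 arrays in N2 and 15 in the mutant, in place of 36 and 26. Signal over background limits what can be said of the 12 probes that were on 0 arrays in either genotype.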
